A study of Mus musculus with 6 samples.

Results

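The nuclear-encoded subunits of the mitochondrial respiratory chain were examined in adult mouse hippocampal precursor cells, the dividing cells of the dentate gyrus from which new neurons arise. Members were the array probes whose gene symbol began with Nduf followed by a, b, c, s or v and a digit, was Sdha, Sdhb, Sdhc or Sdhd, began with Uqcr, with Cox4 to Cox8 followed by a, b or c, or with Atp5. The names were RefSeq symbols reached through each probe's accession, because the array files analysed here carry no column of gene names. This gave 111 of 55681 non-control probes, for 82 genes. Probes entered the test when they stood well above background in all 3 arrays of one group or the other, and 109 member probes for 80 genes did. These 80 were 37 genes of complex I, 4 of complex II, 8 of complex III, 14 of complex IV and 17 of complex V, among 24225 features tested in all.

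The donors of the cells were male C57BL6/JRj mice aged 8 weeks, and the cells grew as an adherent monolayer with EGF and bFGF at 20 ng/ml each. One group received human LDL, the lipoprotein that delivers cholesterol to cells, and the other received saline, each for 48 h with 3 arrays. The dose was 100 ug/ml in the treatment protocol, while the sample descriptions give another unit of volume, so it is uncertain. The 3 replicates were independent experiments on different passages, on 1-colour Agilent arrays of 1 slide, and all cells shared strain, sex and growth medium. All 10 markers listed for precursor cells, Nes, Sox2 and Mki67 among them, were above background on all 6 arrays, and the neuroblast and neuron genes Dcx, Neurod1 and Stmn2 were above it on none. The other 5 of the 8 neuron markers (Tubb3, Map2, Rbfox3, Syn1 and Snap25) and all 8 oligodendrocyte markers were above it on all 6. So were 5 of 8 microglia markers and 3 of 8 vascular markers. All 8 astrocyte markers were also above background on all 6 arrays, with a summed level of 161.6 to 186.2 with saline and 131.5 to 148.0 with LDL, in multiples of the signal at the 75th percentile of the array. These markers did not move one way, since Gfap rose (log2 fold change 1.35, limma adjusted p = 0.0225) while the other 7 had negative values and were not called. Precursor cells of this type themselves express several genes of the astrocyte list, and the part of this difference in the results below was not tested. In whole cultures, fewer cells of a type and less RNA per cell cannot be told apart.

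The respiratory chain passes electrons from NADH and succinate to oxygen and uses the energy to move protons across the inner mitochondrial membrane. Complex I oxidizes NADH, complex II oxidizes succinate, complex III passes electrons from ubiquinol to cytochrome c, and complex IV reduces oxygen. Complex V, the ATP synthase, uses the returning protons to make ATP. Most subunits are encoded in the nucleus and imported, while core membrane subunits of complexes I, III, IV and V are encoded by mitochondrial DNA. The latter were not analysed here. In the adult dentate gyrus, mitochondrial respiration is known to gain importance as precursor cells leave the dividing state and mature.

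Promoters of nuclear respiratory genes are known for sites of NRF1, GABPA (NRF2) and YY1. RefSeq promoter windows (GRCm38.p6, 250 bases before to 50 after the start) were at hand for 68 of the 82 genes. They were searched on both strands, with no overlap found between matches, for the 10-base consensus of NRF1, CCGGAAG (GABPA), AAGATGGC (YY1), TGACGTCA (CREB) and TCACNCCAC (SREBP). A match to NRF1 was found in 17 members (25%, against 5.19% of 27025 genes) and one to GABPA in 17 (25% against 9.93%). YY1 matched in 10 (14.7% against 3.19%) and CREB in 4 (5.88% against 2.03%). The SREBP motif, the one that sterol-responsive promoters carry, matched in 0 of 68, against 1.44% of all genes. At so low a share, 0 of 68 does not set the members apart. The 27025 genes were not limited to those tested on the arrays. At least 1 of the NRF1, GABPA and YY1 motifs was present in 38 members (55.9%), against 16.4% of all genes. A match is a run of letters and does not show binding. Below are the 250 bases before the start of 3 members, with matches in capitals. Cox6a1 is shown because it is the widely expressed counterpart of Cox6a2, the member with the largest difference, and has 2 NRF1 matches and 1 GABPA match. Ndufa11 is shown as the complex I gene with the largest difference, with 1 CREB and 1 NRF1 match, and Cox8b as an isoform gene of other tissues with no match. They lie at chr5:115348959-115349208 on the minus strand, chr17:56717512-56717761 on the plus strand and chr7:140900447-140900696 on the minus strand.
Cox6a1: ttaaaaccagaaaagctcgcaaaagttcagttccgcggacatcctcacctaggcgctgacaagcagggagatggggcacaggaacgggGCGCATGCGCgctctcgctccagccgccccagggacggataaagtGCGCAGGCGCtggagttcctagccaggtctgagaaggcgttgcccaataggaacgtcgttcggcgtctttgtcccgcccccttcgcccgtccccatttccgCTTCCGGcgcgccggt
Ndufa11: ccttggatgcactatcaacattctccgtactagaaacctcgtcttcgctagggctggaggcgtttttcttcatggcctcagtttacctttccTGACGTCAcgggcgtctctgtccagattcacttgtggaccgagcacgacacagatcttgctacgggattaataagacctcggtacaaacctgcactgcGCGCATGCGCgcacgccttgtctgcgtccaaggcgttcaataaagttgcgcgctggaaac
Cox8b: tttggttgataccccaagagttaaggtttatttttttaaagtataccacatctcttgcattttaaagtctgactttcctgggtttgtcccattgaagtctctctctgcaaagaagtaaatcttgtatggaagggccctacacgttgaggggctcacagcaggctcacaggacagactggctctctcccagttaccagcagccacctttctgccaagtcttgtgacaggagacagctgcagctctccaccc

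Across the respiratory chain, 0 of 80 genes were called higher and 0 lower after LDL by limma at a Benjamini-Hochberg adjusted p under 0.05 over all features. Of all 24225 features 0.120% were called, 3 higher (0.0124%) and 26 lower (0.107%). At an unadjusted limma p under 0.05, 1 of 80 members passed (Cox6a2), against 7.46% of all features (2.96% higher and 4.50% lower). The member values were balanced around zero, with 41 positive and 39 negative log2 fold changes (LDL minus saline), while 43.8% of all features were positive. The median was 0.0053, against -0.026 for all features, and the values ran from -0.26 for Cox6c to 0.78 for Cox6a2. For 66 of 80 members the 95% interval lay within 0.5 of zero on the log2 scale, against 56.8% of all features. A difference of that size was therefore outside the interval for most members. The median standard error of a member was 0.11. All LDL arrays lay above all saline arrays for 2 members, Cox6a2 and Uqcrc2, against 5.82% of all features, and below them for 0, against 8.77%.

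**Figure D1:**
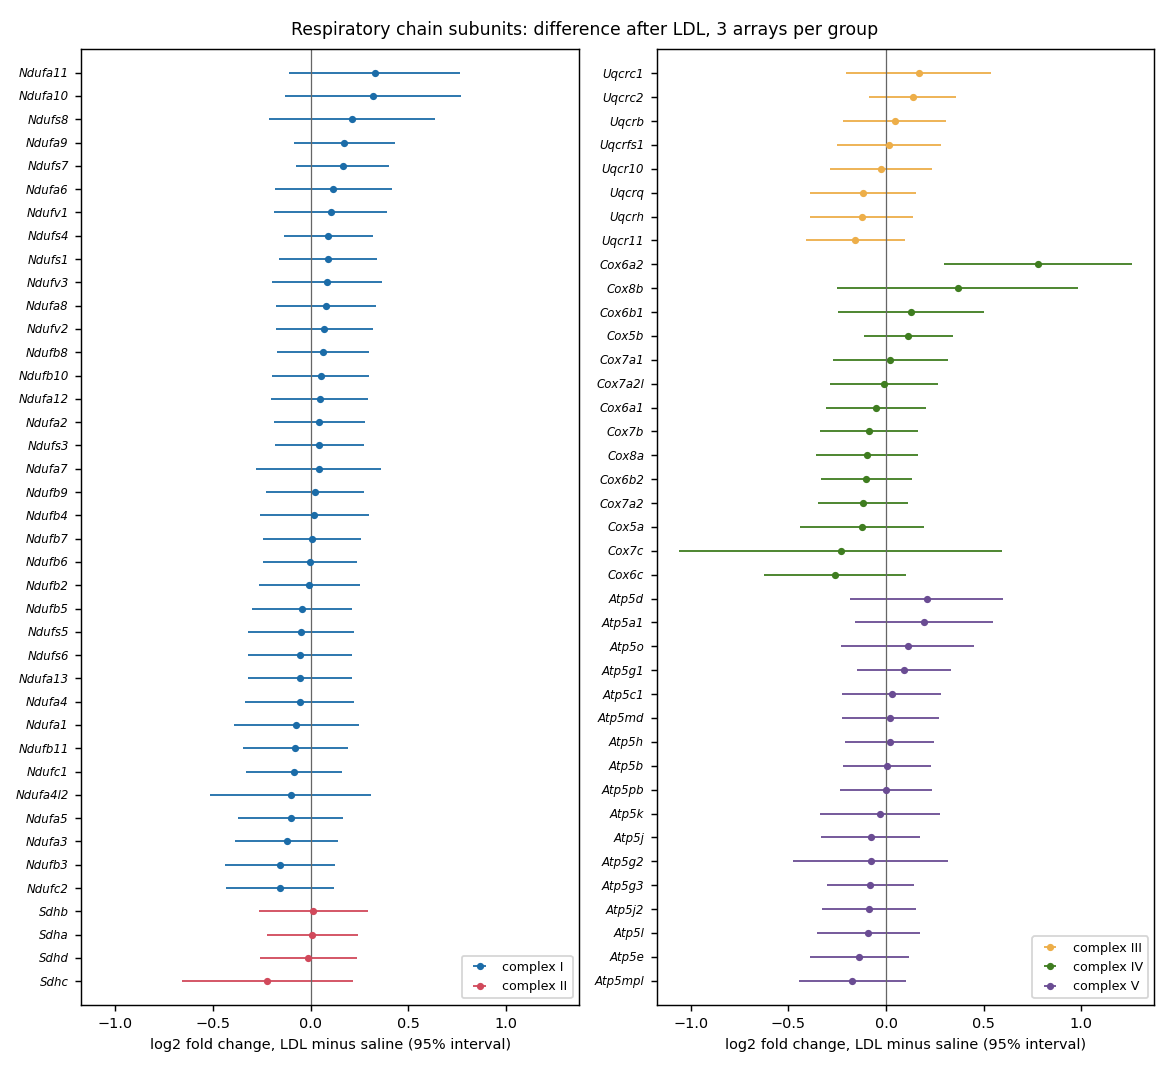
Log2 fold change (LDL minus saline, horizontal axis) of 79 of the 80 genes tested, sorted within their complex. Points are limma estimates from 3 arrays per group and bars are 95% intervals. The interval of Cox6a2 (0.30 to 1.26) alone excludes zero, at an adjusted p of 0.472.

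Complex I is the largest of the 5 and takes electrons from NADH through a flavin and a chain of iron-sulfur clusters to ubiquinone. Its 37 genes had a median log2 fold change of 0.040, with 22 positive and 15 negative values, between -0.16 for Ndufc2 and 0.33 for Ndufa11. The smallest adjusted p among them was 0.773. The N module oxidizes NADH, and 9 of its 10 genes had positive values, with a median of 0.077. Ndufv1, which binds the flavin and NADH, had signals of 5.25, 5.53 and 5.16 on saline arrays 1 to 3 and 5.45, 5.43 and 5.36 on LDL arrays 1 to 3 (log2 units above each array's 75th percentile, the scale of all signals here). The LDL values lay between the saline values, and the log2 fold change was 0.10 (SE 0.12). The other cluster-bearing subunits of this module, Ndufv2 and Ndufs1, had 0.07 and 0.09.

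The Q module carries the electrons to ubiquinone. Its 6 genes had a median of 0.14 and 5 positive values, and none passed. Ndufs7, which holds the last iron-sulfur cluster, had 4.36, 4.54 and 4.36 with saline against 4.66, 4.55 and 4.54 with LDL. The groups met at 4.54, and the log2 fold change was 0.16 (SE 0.10, limma adjusted p = 0.791). Ndufa9, an accessory subunit of the same module, had 3.73, 3.95 and 3.69 with saline against 3.99, 3.99 and 3.90 with LDL, a log2 fold change of 0.17 (limma adjusted p = 0.793). LDL replicate 3 lay below saline replicate 2, so the groups overlapped.

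The largest positive values of complex I were those of a pair of accessory subunits, and 1 saline array carried much of both. Ndufa11, a membrane-arm subunit, had 1.62, 2.33 and 2.07 with saline and 2.44, 2.29 and 2.27 with LDL. Its log2 fold change was 0.33 (SE 0.18, limma adjusted p = 0.773), and 0.13 without saline replicate 1. Ndufa10, another membrane-arm subunit, had 2.50, 3.26 and 2.98 with saline against 3.24, 3.23 and 3.22 with LDL, a value of 0.32 that became 0.11 without that array. Saline replicate 1 was the low array in both, while the other saline arrays reached or approached the LDL range. The same array lay over 0.25 below both other saline arrays in 8 members, among them these 2, the Q module core subunit Ndufs8, Ndufa4l2, Uqcrc1, Cox6b1 and Cox8b. Ndufs8 went from 0.21 to 0.014 without it. Uqcrc1 went from 0.17 to 0.014.

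On the negative side of complex I, Ndufc2 and Ndufb3, both accessory subunits of the membrane arm, each had a log2 fold change of -0.16, and their adjusted p were 0.828 and 0.831. Ndufc2 had 6.15, 5.93 and 5.80 with saline and 5.77, 5.82 and 5.82 with LDL. Saline replicate 1 was the highest array and saline replicate 3 lay within the LDL values. Ndufa3 and Ndufa5 had -0.12 and -0.10. Over the 10 Ndufb genes, accessory subunits of the membrane arm, the median was 0.0017, with 5 positive and 5 negative values. Ndufs3, a core subunit of the Q module, had 0.04. Ndufa4, named for complex I but now placed with complex IV, had -0.06, and its paralog Ndufa4l2, known to respond to hypoxia, had -0.10 (SE 0.17).

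Complex II is succinate dehydrogenase, an enzyme of the citric acid cycle as well as of the chain, and has no subunit from mitochondrial DNA. The flavin-bearing Sdha had 4.99, 5.16 and 5.13 with saline against 5.04, 5.10 and 5.16 with LDL. The arrays of the groups interleaved, and the log2 fold change was 0.0073 with a 95% interval of -0.23 to 0.24. The iron-sulfur subunit Sdhb had 0.013, or 0.23 with a dimmer probe, and the membrane anchor Sdhd -0.012. The other anchor, Sdhc, had 4.61, 4.51 and 4.44 with saline and 3.88, 4.48 and 4.54 with LDL. Only LDL replicate 1 lay outside the saline range, and the log2 fold change of -0.22 became -0.013 without it. A dimmer Sdhc probe had 0.05.

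Complex III had 8 genes tested, 4 with positive and 4 with negative values, and a median of -0.0057. Uqcrc2, a core subunit of the matrix side, had 4.47, 4.47 and 4.32 with saline against 4.58, 4.55 and 4.54 with LDL. All LDL arrays lay above all saline arrays, but by little, and the log2 fold change was 0.14 (SE 0.09, 95% interval -0.09 to 0.36, limma adjusted p = 0.818). Its partner core subunit Uqcrc1 had 3.49, 4.08 and 3.82 with saline and 3.97, 4.01 and 3.92 with LDL, so that LDL lay inside the saline range. The Rieske iron-sulfur protein Uqcrfs1 had 0.015 (95% interval -0.25 to 0.28). Uqcr11, Uqcrh and Uqcrq, small accessory subunits, had -0.16, -0.13 and -0.12, and the accessory subunits Uqcrb and Uqcr10 had 0.04 and -0.03.

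Complex IV was the one in which tissue isoforms could be compared by their own differences, since several of its nuclear subunits exist in a widely expressed form and in a heart or muscle form. Its 14 genes tested had 5 positive and 9 negative values and a median of -0.07. Cox8b, among the 5, entered the test through the LDL group alone. With 1 array left out, the median was highest, 0.014, without LDL replicate 1, and its lowest value was below -0.07. Cox6a2, the heart and skeletal muscle form of subunit VIa, had 1.54, 0.97 and 0.84 with saline against 1.68, 2.03 and 1.97 with LDL. All LDL arrays lay above all saline arrays, and the gap between the nearest, saline replicate 1 and LDL replicate 1, was smaller than the spread within the saline group. The log2 fold change was 0.78 (SE 0.20, 95% interval 0.30 to 1.26), a 1.71-fold difference between the group means, with all 3 LDL arrays above the saline mean. Its unadjusted limma p of 0.00668 ranked 342 among all features and gave an adjusted p of 0.472, so it did not pass. Other scalings and the authors' values gave 0.67 (normexp) to 0.82 (median scaling), with limma adjusted p from 0.348 to 0.415. Over all settings the value ranged from 0.60 within slide row 1 to 1.14 for the single arrays of slide row 2. Where a test was possible, the limma adjusted p ran from 0.169, without saline replicate 1, to 0.9998. Leaving out single arrays gave 0.64 to 0.99. Of 6 muscle markers listed, Actc1 and Tnnt2 were above background on 0 arrays and the other 4 on all 6. Their summed level was 0.724 to 0.867 with saline and 0.794 to 0.911 with LDL, which overlapped.

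The widely expressed counterpart Cox6a1 had a value near zero. Its signals were 7.41, 7.48 and 7.25 with saline and 7.42, 7.23 and 7.34 with LDL, with interleaved arrays and a log2 fold change of -0.05 (95% interval -0.31 to 0.20). The difference between the isoforms was not tested. Other isoforms of restricted tissues were near zero or uncertain. Cox7a1, the muscle form of subunit VIIa, had 0.021 and its widely expressed counterpart Cox7a2 had -0.12. Cox6b2, the testis form of subunit VIb, had -0.10 and its counterpart Cox6b1 had 0.13, or -0.04 without saline replicate 1. Cox8b, the heart and muscle form of subunit VIII, stood just inside the background threshold, above it on 1 of 3 saline arrays and 3 of 3 LDL arrays. It thus entered the test through the LDL group alone, a filter that favours a positive value, so its sign and p are no evidence of a direction. It had -5.35, -4.62 and -4.92 with saline against -4.44, -5.07 and -4.27 with LDL, a log2 fold change of 0.37 (SE 0.26, limma adjusted p = 0.824). The value was 0.095 with normexp and 0.19 in the authors' values. Cox8a, its widely expressed counterpart, had -0.10. Cox7b2 and Cox8c, both known from testis, did not reach the threshold and were above background on 0 of 6 arrays, with values of -7.09 to -6.17 and -7.54 to -6.62.

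**Figure D2:**
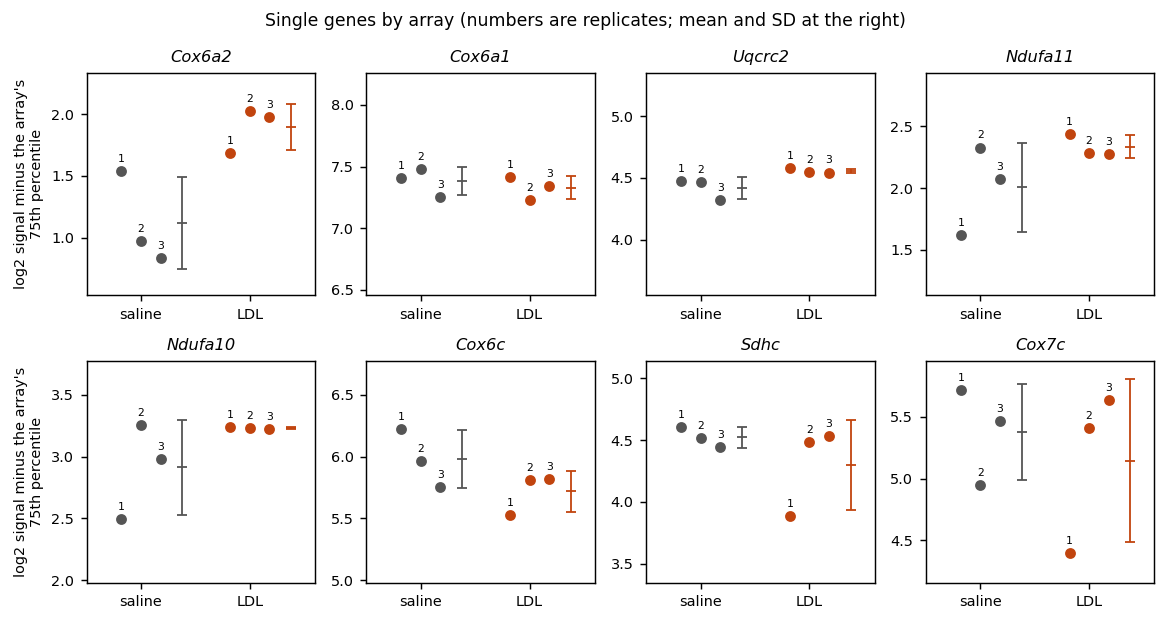
Normalized log2 signal (vertical axis, a span of equal height in each panel) of 8 members on each saline and LDL array, numbered by replicate, with the group mean and SD at the right. In Cox6a2 every LDL point is above every saline point, in Ndufa11 and Ndufa10 saline replicate 1 is the low point, and in Sdhc and Cox7c LDL replicate 1 is.

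Among the other complex IV subunits, Cox6c and Cox7c, both small membrane subunits, had the lowest values. Cox6c had 6.23, 5.96 and 5.76 with saline against 5.53, 5.81 and 5.82 with LDL, a log2 fold change of -0.26 (SE 0.15, limma adjusted p = 0.779). Saline replicate 1 was the highest array and LDL replicate 1 the lowest, and the other 4 lay between 5.76 and 5.96. Cox7c had 5.71, 4.95 and 5.47 with saline against 4.40, 5.41 and 5.63 with LDL, a log2 fold change of -0.23 with an SE of 0.35, the widest of the members. The dimmer Cox7c probes had -0.018 and -0.28. Without LDL replicate 1 the value of the brightest probe was 0.14. That array lay over 0.25 below both other LDL arrays in 7 members: Sdhc, Cox7c, Cox6c, Cox6a2, Cox7a2l, Atp5o and Ndufa4l2. Cox5a and Cox5b, the matrix-side subunits, had -0.12 and 0.11, and Cox7b had -0.09. Cox7a2l, a factor that joins complexes III and IV into supercomplexes, had -0.0096, with a sign that turned positive under median scaling, in the authors' values, in slide row 2 and with the mean over its probes.

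Complex V had 17 genes tested, 8 with positive and 9 with negative values, a median of -0.00084 and no call. The catalytic beta subunit Atp5b had 7.48, 7.54 and 7.38 with saline against 7.45, 7.52 and 7.43 with LDL. All LDL values fell inside the saline range, and the log2 fold change was 0.0038 (95% interval -0.22 to 0.23). Its alpha partner Atp5a1 had 6.10, 5.69 and 6.07 with saline and 5.98, 6.17 and 6.29 with LDL, a value of 0.19 (SE 0.15, limma adjusted p = 0.831). Saline replicate 2 was the low array there, and saline replicates 1 and 3 lay among the LDL values. Of the 5 genes of the F1 head with its central stalk, which carries out catalysis, 4 had positive values, with a median of 0.028. They included Atp5d, the delta subunit of the central stalk, with 3.57, 4.19 and 3.78 with saline against 4.12, 4.04 and 4.02 with LDL, a value of 0.21 (SE 0.16). The gamma subunit Atp5c1 had 0.028 and the epsilon subunit Atp5e -0.14.

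The c-ring, the proton-driven rotor, is encoded by 3 genes for the same mature protein. Atp5g1, Atp5g2 and Atp5g3 had 0.09, -0.08 and -0.08, and the interval of each included zero. The peripheral stalk and membrane subunits had a median of -0.03 over 9 genes, 3 of them positive. Atp5mpl, a small membrane subunit, had the lowest value, -0.17 (limma adjusted p = 0.810), and Atp5o, the OSCP subunit that links the stalk to F1, had 0.11. Atp5j2, the f subunit, had -0.09.

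The members varied together from array to array, and more among saline than among LDL arrays. The median SD of a member was 0.144 over the saline and 0.0549 over the LDL arrays, against 0.189 and 0.105 for all features. The saline SD was the larger in 69 of 80 members (86.3%), against 75.7% of all features. Saline replicate 2 gave the highest saline value in 55 of 80 members (68.8%, against 35.1% of all features) and saline replicate 3 the lowest in 57 (71.3% against 29.8%). As medians over the 80 members, saline replicates 1, 2 and 3 deviated by 0.021, 0.10 and -0.10 from each gene's saline mean, and LDL replicates 1, 2 and 3 by -0.037, 0.020 and 0.034. The median of each complex thus lay, for every LDL array, between the medians of saline replicates 2 and 3, except complex II on LDL replicate 1 (-0.10 against -0.07) and complex III on LDL replicate 3 (0.076 against 0.068). This pattern was not particular to the members. In the citric acid cycle list described below, saline replicates 2 and 3 deviated by 0.143 and -0.080. The values were 0.116 and -0.054 in the import list and 0.108 and -0.108 in the subunits outside the rule. The saline SD was the larger in 87.0%, 91.3% and 90.9% of these lists, 82.6% of assembly factors and 73.7% of regulators. All these values used the 75th-percentile scaling. Saline replicate 2 also had the smallest share of probes well above background, 55.9%, against 59.7% to 66.9% on the others. The part of this in the order of the arrays was not tested.

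**Figure D3:**
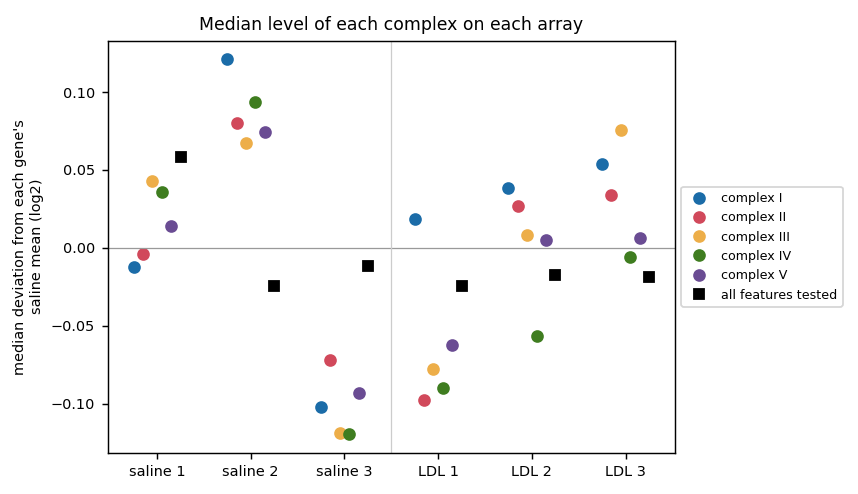
Median over the genes of each complex, and over all features tested (squares), of the deviation from each gene's saline mean (log2, vertical axis) on each of the 6 arrays. All 5 complexes are above zero on saline replicate 2 and below it on saline replicate 3, and the LDL arrays lie mostly between.

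**Figure D4:**
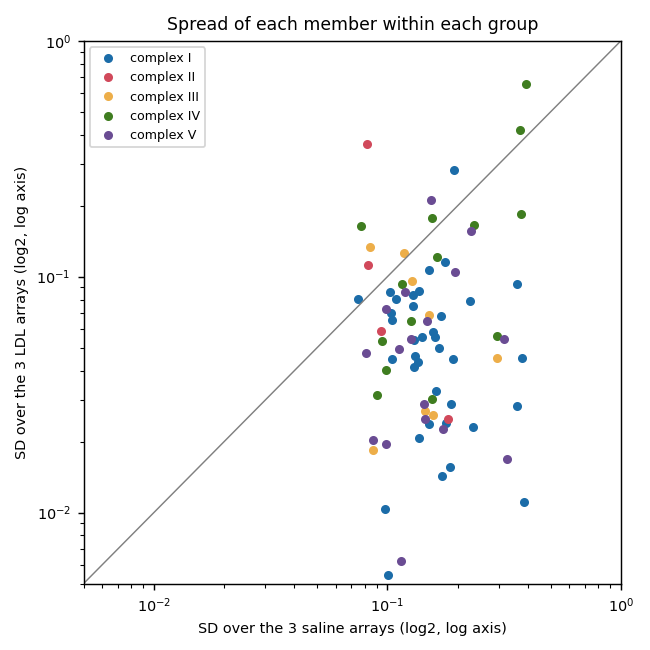
SD of each of the 80 members over the 3 LDL arrays (vertical) against that over the 3 saline arrays (horizontal), both on log axes, with the line of equality. The saline SD is larger for 69 members, which lie below the line.

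The member median was close to zero, and its sign differed with the arrays that entered the comparison. Within slide row 1, with replicates 1 and 2 of both groups, the member median was -0.07, and 58 of 80 values were negative. Positive values made up 27.5% of the members there, against 44.1% of all features. In slide row 2, with replicate 3 of each group alone and so without a test, the median was 0.13, and 78 of 80 values were positive, against 48.1% of all features. With slide row as a block 0 members were called. The median stayed at 0.0053, which this block could not change, since each row held as many LDL as saline arrays. Without saline replicate 2, all LDL arrays lay above all saline arrays for 25 members (31.3%, against 15.7% of all features), and without saline replicate 3 they lay below for 25 (31.3% against 14.9%). Members were called in neither case. The median was -0.0056 without LDL replicate 2 and -0.017 without LDL replicate 3.

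For the 22 members with at least 2 tested probes, the log2 fold changes of a gene's probes differed by 0.0029 to 0.27, and the widest gap was that of Sdhc. In 11 of these 22 genes the probes differed in sign, as in Uqcrq, with -0.12 and 0.14, so that gaps were of the size of the members' own values. The members with an NRF1 match had a median log2 fold change of 0.0073 over 17 genes and those without of -0.0021 over 50. For GABPA the medians were -0.012 with and 0.0056 without a match, and for YY1 -0.027 and 0.0038. The 4 members with a CREB match, Ndufa10, Ndufa11, Ndufb2 and Uqcrfs1, had a median of 0.17, and 2 of these 4 were the genes in which saline replicate 1 stood low.

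Other genes of respiration were described alongside, and 0 were called in any of 5 lists. The 11 tested subunits and carriers that the naming rule left out, such as Cyc1, Cox4i1 and Ndufab1, had a median of 0.063, with 8 positive values. Cycs, the electron carrier cytochrome c, had 5.94, 5.98 and 5.82 with saline and 6.10, 6.05 and 6.05 with LDL, all LDL arrays above all saline arrays, and a log2 fold change of 0.15 (limma adjusted p = 0.793). It was the only 1 of the 11 with that separation (9.09%, against 5.82% of all features). Etfb, a subunit of the electron transfer flavoprotein, had 0.20. Assembly factors, which build the complexes and do not remain in them, had a median of 0.11 over 46 genes, with 37 positive. All LDL arrays lay above all saline arrays for 10 of them (21.7%, against the 5.82% of all features above) and below for 1 (2.17% against 8.77%). As medians over these genes, saline replicates 1, 2 and 3 deviated by -0.074, 0.135 and -0.046 from the saline mean. LDL replicates 1, 2 and 3 deviated by 0.122, 0.131 and 0.113, so saline replicate 2 lay above every LDL array. Ndufaf6 and Ndufaf3, complex I assembly factors, had 0.22 and 0.31 (limma adjusted p = 0.670 for both). Ndufaf6 had 1.29, 1.33 and 1.34 with saline and 1.48, 1.53 and 1.59 with LDL, so that its groups did not overlap.

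Transcription regulators of respiratory genes, listed with the mitochondrial DNA replication genes Polg, Polg2 and Twnk, had a median of 0.026 over 19 genes. All LDL arrays lay above all saline arrays for 4 of the 19 (21.1%, against 5.82% of all features) and below for 3 (15.8% against 8.77%). Those above were Ppargc1b (0.32), Polrmt (0.19), Tfb1m (0.18) and Esrra (0.14), and those below Pprc1, Nrf1 and Gabpa. Nrf1, whose motif was searched above, had 1.86, 2.02 and 1.75 with saline against 1.66, 1.58 and 1.57 with LDL, a log2 fold change of -0.27 (SE 0.11, limma adjusted p = 0.630). Gabpa, whose motif was also searched, had -0.28 (limma adjusted p = 0.670), and Pprc1, a coactivator of the PGC-1 family, had -0.37 (limma adjusted p = 0.622). None of these 7 passed. The 23 genes of the citric acid cycle and pyruvate dehydrogenase had a median of 0.013, with Ogdh at 0.23 and Dlst at 0.17, both subunits of the 2-oxoglutarate dehydrogenase. The 23 genes of mitochondrial import, cristae and adenine nucleotide transport had a median of 0.075. Among them Slc25a20, the carnitine carrier of fatty acid import, had -1.33, -0.60 and -0.67 with saline against -0.38, -0.39 and -0.33 with LDL, a log2 fold change of 0.50 (SE 0.20, limma adjusted p = 0.641). Its groups did not overlap, with saline replicate 1 the lowest array. All LDL arrays lay above all saline arrays for 3 of these 23 genes (13.0%, against 5.82% of all features), Mfn2 and Phb being the others. They lay below for 0, against 8.77%. Chchd6, a cristae organizing protein, had 0.40 with overlapping groups.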

How the data were processed

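The 6 arrays were 1-colour Agilent arrays of Cy3 cRNA made from 100 ng of total RNA, per the labels' protocols. The authors deposited scanner files with intensity values on a linear scale, background-subtracted per the file headers by Agilent Feature Extraction, and a table of log2 values of the same arrays, used as an alternative. Its normalization is not given in the sources read here. The submitters' processing notes name limma 3.34.9, R 3.4.4 and, for the scans, Agilent Feature Extraction 10.7.3.1.

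Each processed signal was taken as log2 minus the log2 of the array's 75th percentile over non-control spots (730.4 to 961.7), without outlier spots except where all spots of a probe were such. A probe's spots were averaged, and a probe counted as above background where at least 50% of its spots did. Symbols came from unversioned RefSeq accessions (28331 probes matched) in a GRCm38.p6 gene table, and the brightest probe stood for a gene. Cross-hybridization between near-identical paralogs was not examined. Groups were compared by limma 3.58.1 in R 4.3.3 (lmFit, eBayes, two-sided, no covariates), with Benjamini-Hochberg adjustment over 24225 features. P-values rest on 3 arrays a group, whose number limits the precision. The smallest p an exact permutation of 6 arrays allows is 0.1. The scripts were tested on simulated data. Promoters were read with Python 3.11.15 and figures drawn with matplotlib 3.10.9.

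The members, lists and tests were chosen with earlier results of these data known. By the rule, the text names per complex up to 4 positive and 4 negative members with the smallest p, all Sdh genes, catalytic and cofactor subunits, isoforms, members next to the background threshold and up to 2 genes of each other list. Some of the genes so named are not reported here. Names outside it, such as Cox7c, were chosen after their values were seen. Same-numbered saline and LDL arrays had deviations from their group means that correlated across features with r of 0.21, -0.04 and 0.18 (features are not independent replicates). Arrays of different numbers had r from -0.23 to 0.08. Same-numbered arrays also shared a slide row, so these values cannot decide whether the numbers are pairs. The main fit did not take them as pairs, and a block for replicate number was a setting. Saline arrays lay in slide columns 1 and 3 and LDL arrays in columns 2 and 4, so treatment and slide column cannot be told apart. The settings varied were the scaling (quantile, median, or normexp at an offset of 50 followed by quantile, on median spot signals), the use of the authors' values, the background filter, the handling of several probes per gene, a block for replicate number or for slide row, each slide row alone, the variance model and each array left out. Older gene names and complex IV placement of Ndufa4 and Ndufa4l2 were added after seeing the data.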

Additional observations from a re-analysis of the deposited data

How the results depend on the processing

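In every setting with a test, the replicate block included, 0 members were called by limma, and 0 to 5 had an unadjusted p under 0.05 (slide row 2, with 1 array a group, has no test). That block gave 2 features higher and 1 lower over all features (1975 at an unadjusted p under 0.05) and changed no member's call. The count of features higher was 8 with the authors' values and with median scaling, 9 with normexp, 16 with trended robust variances, and 5 with quantile normalization or with the filter on all 6 arrays. It was 0 without the background filter (1773 features at an unadjusted p under 0.05), within slide row 1 (862) and with slide row as a block (1578). The count of features lower was 0 without the filter and within slide row 1, and 14 with slide row as a block. With 1 array left out, 0 to 6 features were higher and 0 to 23 lower, and 991 to 3742 had an unadjusted p under 0.05.

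Members with all LDL arrays above numbered 8 with the authors' values (10%, against 7.81% of all features), 7 with normexp (8.75% against 7.26%), 7 with quantile normalization (8.75% against 7.61%) and 4 within slide row 1 (5% against 11.1%). Those with all below numbered 8 (10% against 8.59%), 10 (12.5% against 9.02%), 8 (10% against 9.25%) and 28 (35% against 19.4%) there, and 1 with single probes (0.917% against 8.40%). Leave-one-out gave 2 to 25 above (7.28% to 15.7% of all features) and 0 to 25 below (11.2% to 22.8%). Within slide row 1 the median log2 fold change was -0.074 over all members and -0.077 for complex V. In slide row 2 it was 0.14, 0.11, 0.13, 0.11 and 0.090 for complexes I to V and 0.13 over all. With 1 array left out, it ran from -0.05 to 0.04 over all members, -0.014 to 0.10 for complex I, -0.06 to 0.04 for complex II, -0.06 to 0.05 for complex III, -0.13 to 0.014 for complex IV and -0.06 to 0.04 for complex V. The cause was not tested.

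Signs of uncalled members turned as follows. In slide row 2: 0.018 for Ndufc2, 0.019 for Ndufb3, 0.037 for Ndufa3, 0.11 for Ndufa5, 0.092 for Sdhc, 0.12 for Sdhd, 0.11 for Uqcrh, 0.14 for Uqcrq, 0.18 for Uqcr10, 0.063 for Cox6c, 0.038 for Cox7a2, 0.0043 for Cox6b2, 0.14 for Cox5a, 0.070 for Atp5e, 0.014 for Atp5g3, 0.061 for Atp5j2, 0.14 for Ndufa4, 0.030 for Ndufa4l2, 0.085 for Cox6a1, 0.19 for Cox7a2l, 0.087 for Cox7b, 0.080 for Cox8a and 0.043 for Atp5g2. In slide row 1: -0.076 for Sdhb, -0.0011 for Sdha, -0.053 for Uqcrb, -0.0042 for Uqcrfs1, -0.0042 for Ndufs3, -0.021 for Atp5b, -0.019 for Atp5c1 and -0.072 for Cox7a1. With the mean over probes: -0.018 for Uqcrb, 0.013 for Uqcrq, 0.039 for Uqcr10, -0.047 for Atp5c1 and 0.056 for Cox7a2l. With median scaling, which moved the median of all features from -0.026 to 0.021: 0.036 for Sdhd, 0.021 for Uqcr10 and 0.038 for Cox7a2l. In the authors' values: 0.048 for Ndufa4l2 and 0.015 for Cox7a2l. With normexp: -0.0022 for Ndufv2 and 0.025 for Ndufa4l2. Leave-one-out ranges that crossed zero were Atp5b -0.040 to 0.040, Atp5c1 -0.015 to 0.11, Atp5g2 -0.20 to 0.11, Cox6b1 -0.035 to 0.25, Cox7a1 -0.073 to 0.081, Cox7a2l -0.065 to 0.084, Ndufa4 -0.15 to 0.019, Ndufa4l2 -0.23 to 0.051, Ndufs3 -0.0044 to 0.096, Sdha -0.046 to 0.041, Sdhb -0.082 to 0.099, Sdhd -0.045 to 0.053, Uqcr10 -0.082 to 0.048, Uqcrb -0.041 to 0.11, Uqcrfs1 -0.067 to 0.081. With Ndufa4 and Ndufa4l2 counted in complex IV, or with older gene names matched (85 members), the medians moved by less than the spread between arrays. Cox6a2 kept its sign in all 20 settings. As its groups did not overlap and it had 1 probe, only another scaling or the authors' values could have turned the sign.

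With 3 arrays a group, a difference whose interval includes zero cannot be told from zero, and weak signals such as Cox8b lie near background.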
